A study of Oncorhynchus mykiss with 3 samples.

Results

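The miR-181 family in rainbow trout (Oncorhynchus mykiss) eggs was taken as every known miRNA name with this family number, written miR-181 or mir-181, with both arms and all sequences. This gave 13 of 575 known names and 25 of 1059 known sequences. Eggs came from females of a commercial population reared in spring water and were taken at day 1 (D1PO), day 7 (D7PO) or day 14 (D14PO) post-ovulation. The labels give survival rates of 91.8% for D1PO and 73.4% for D7PO, and only an upper bound for D14PO. The study reports these same values as fertilization rates, judged by embryo cleavage. Each age was sequenced as 1 small RNA library from RNA pooled over females, and no library was repeated. The deposited table gives each unique sequence a single number of reads without naming the library, so no value of the family belongs to a single egg age and the ages were not compared. The sources used here do not say over which libraries this number was added up. The known total of the column is larger than the reads that the study gives as mapped to miRBase, summed over its libraries, so the number was read only as the count listed for each sequence.

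A miRNA is cut from a hairpin RNA with a 5p and a 3p arm, and the arm loaded into the Argonaute protein pairs with messenger RNAs mainly through its seed, bases 2 to 8. miR-181 genes of mammals lie as neighbouring pairs, miR-181a beside miR-181b and miR-181c beside miR-181d. In mice miR-181a is known for its part in lymphocyte development, where it tunes the response of the T cell receptor, and in medaka miR-181a and miR-181b are known from neurons of the retina. Salmonids went through an additional genome duplication, so near-identical copies of a miRNA gene are common in trout.

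For most names the sequence with most reads is shown here, with the seed in capitals. Those of omy-miR-181c-5p, omy-mir-181a-2-3p and omy-mir-181c-3p follow further below. The sequences are shown because the 5p seed was found in no other family and the 3p arms of miR-181a differ between its hairpin places. They are given as deposited, 5′ to 3′.
omy-miR-181b-5p: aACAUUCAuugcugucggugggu
omy-miR-181a-5p: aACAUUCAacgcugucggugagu
omy-miR-181a-2-3p: aCCAUCGAccguugacuguacc
omy-miR-181a-3p: gACCAUCGaccguugauuguacc
omy-miR-181a-4-3p: aCCAUCGAccguugaguguacc
omy-miR-181a-1-3p: aCCAUCGAccguuaaauguacc
omy-miR-181b-3p: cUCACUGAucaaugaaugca
omy-mir-181b-3p: cUCACUGAucaaugaaugcaga
omy-mir-181b-2-3p: cUCGCUGAacaaugaaugcaa
omy-miR-181c-3p: cUCACUGAucaaugaaugaaca

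The family held 65839 reads (95% Poisson interval 65337 to 66344), or 0.857% of the 7684127 reads of known miRNAs. By reads it ranked 22nd of 140 known families, between miR-19 with 68937 reads and miR-99 with 63865, and the intervals of these 3 families did not overlap. By its 13 names it ranked 5th, where the median family had 3 names. In the deposited list these 13 names fall under 9 study numbers, so a name and a numbered miRNA are different units. All intervals cover counting error only and treat each read as independent. Reads amplified by PCR are not independent molecules, so the intervals may be too narrow.

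Most of the family was read from the 5p arm of miR-181b and miR-181a. omy-miR-181b-5p had 29458 reads (29123 to 29796) and ranked 42nd of the 575 known names. omy-miR-181a-5p had 21045 reads (20762 to 21331) and ranked 55th. Together these 2 names held 76.7% of the family, and omy-miR-181b-5p had 1.40 times the reads of omy-miR-181a-5p.
The third name was a 3p arm, omy-miR-181a-2-3p, with 8791 reads (8608 to 8977), which ranked 85th of all known names. With it the share of the family rose to 90.1%. The 10 remaining names ranged from 2622 reads of omy-miR-181a-3p down to 67 of omy-mir-181a-2-3p (51.9 to 85.1).
Among them, omy-miR-181a-4-3p had 1027 reads and omy-miR-181a-1-3p 512, both from the 3p arm of miR-181a. omy-miR-181b-3p had 745 reads (692 to 800) and omy-mir-181b-3p 711 (660 to 765), 2 entries of the miR-181b 3p arm whose intervals overlapped. omy-miR-181c-5p had 335 reads (300.1 to 372.9), and its interval overlapped that of omy-mir-181b-2-3p with 280 (248 to 315). omy-mir-181c-3p with 129 reads (108 to 153) and omy-miR-181c-3p with 117 (96.8 to 140.2) were also within counting error of each other. In the other 9 of the 12 neighbouring steps of this order the intervals did not overlap.

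**Figure D1:**
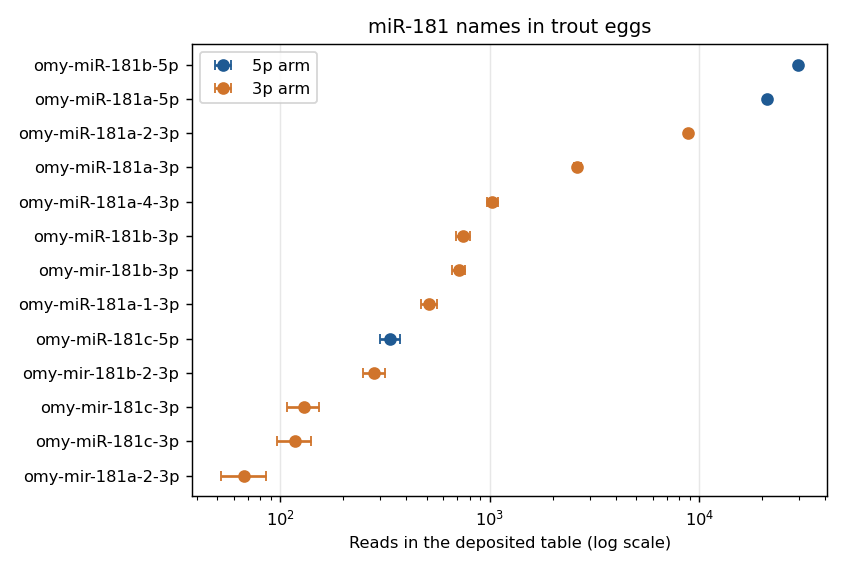
Reads of the 13 miR-181 names in the deposited table on a log axis, with points for the sum over the sequences of a name and bars for the 95% Poisson interval. The 5p names of miR-181b and miR-181a stand at 29458 and 21045 reads, and the third 5p name, of miR-181c, stands at 335 among the 3p names.

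The seed of the 5p arm was shared by all 3 letters. It was carried by 10 of the 11 5p sequences and 50785 of 50838 5p reads, or 99.9% (99.86 to 99.92). No sequence of another known or predicted miRNA began with it at bases 2 to 8. The exception within the family was the sequence of omy-miR-181b-5p with 1 more base at its 5′ end, whose seed is shifted by that base, with 53 reads (39.7 to 69.3).
omy-miR-181b-5p with a shifted seed: cAACAUUCauugcugucggugggu
The 3p arms did not share a seed. The seed of omy-miR-181a-2-3p was found in 5 of 14 3p sequences and in 11397 of 15001 3p reads, or 76.0% (75.3 to 76.7). The sequence of omy-miR-181a-3p with most reads, called its first sequence here, begins 1 base earlier and so has a seed of its own, with 1605 reads or 10.7%. The seed of omy-miR-181b-3p, found in 3 sequences named miR-181b or miR-181c, held 1573 reads or 10.5%. The 3p sequences named omy-mir-181b-2-3p had another seed in 264 reads or 1.76%.

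The balance of the arms differed between the letters. For miR-181b, 29458 reads came from the 5p arm and 1736 from the 3p arm, a 5p share of 94.4% (95% Clopper-Pearson interval 94.2 to 94.7) or 17.0 5p reads per 3p read (16.2 to 17.8). For miR-181a it was 21045 and 13019 reads, a 5p share of 61.8% (61.3 to 62.3) or 1.62 5p reads per 3p read (1.58 to 1.65). For miR-181c it was 335 and 246 reads, a 5p share of 57.7% (53.5 to 61.7). The interval of miR-181b lay above those of miR-181a and miR-181c, which overlapped each other. The miR-181c value depends on naming, since 121 of its 335 5p reads are in sequences that begin with the whole main sequence of omy-miR-181b-5p. The 117 reads of omy-miR-181c-3p are listed at a hairpin place that also holds omy-mir-181b-3p. The arm share with these counted as miR-181b was not tested. The miR-181c value also depends on omy-mir-181c-3p, an entry unlike the rest of the family that held 129 of the 246 3p reads. Without it, a choice made after seeing the data, the 5p share of miR-181c was 74.1% (69.8 to 78.1) or 2.86 5p reads per 3p read, above the interval of miR-181a and below that of miR-181b. miR-181a therefore held 86.8% of the 3p reads of the family (86.2 to 87.3) and 41.4% of its 5p reads (41.0 to 41.8), while miR-181b held 11.6% and 57.9%.
Over the whole family the 5p share was 77.2% (76.9 to 77.5). In 3 other families of several copies that are read mainly from the 5p arm it was 99.2% for let-7, 96.3% for miR-26 and 85.6% for miR-30, all with intervals above that of miR-181. Among all 56 other families with reads from both arms and a 5p share over 50%, the interval lay above that of miR-181 in 43, overlapped it in 3 and lay below it in 10. Of families with 6 or more names, miR-125 stood at 77.9% and miR-99 at 76.3%, both chosen for display after their values were seen. Over the 105 known families with reads from both arms the median 5p share was 63.3%, and the middle 50% of them ranged from 10.9% to 96.3%. These shares compare reads of 1 column with no library named, so how they vary between eggs was not tested.

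**Figure D2:**
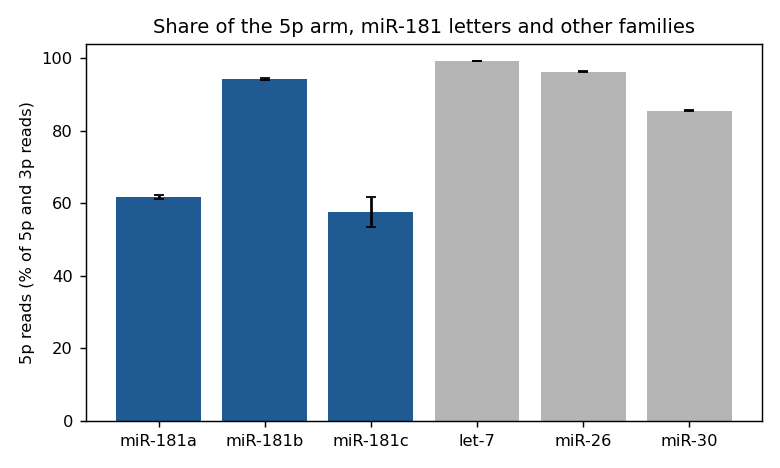
Reads from the 5p arm as a percent of the 5p and 3p reads, for the letters of miR-181 (blue) and for let-7, miR-26 and miR-30 (grey), with 95% Clopper-Pearson intervals as error bars. miR-181b stands at 94.4%, near the grey bars, while miR-181a and miR-181c stand at 61.8% and 57.7%, the last of these at 74.1% without omy-mir-181c-3p.

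The 5p arm of miR-181a was listed as a single sequence. Apart from bases added at an end, its 3p arm had 4 forms with a genome position, listed at 4 places. They differ at base 16, and omy-miR-181a-1-3p also at base 14. The form with most reads was omy-miR-181a-2-3p, and substitutions are given against it, counted from 1 at its 5′ end. omy-miR-181a-4-3p differs by C16G, the first sequence of omy-miR-181a-3p by C16U after 1 added 5′ base, and omy-miR-181a-1-3p by G14A and C16A. The second sequence of omy-miR-181a-3p is omy-miR-181a-4-3p with 1 more base at its 3′ end. These 3p sequences are printed with capitals at the bases that differ from omy-miR-181a-2-3p. The substitutions at bases 14 and 16 differ between the places, while a capital at either end is an added base.
omy-miR-181a-2-3p, chrUn_Sex: accaucgaccguugacuguacc
omy-miR-181a-4-3p, chrUn_5: accaucgaccguugaGuguacc
omy-miR-181a-3p, second sequence, chrUn_5: accaucgaccguugaGuguaccU
omy-miR-181a-3p, first sequence, chrUn: GaccaucgaccguugaUuguacc
omy-miR-181a-1-3p, chrUn_11: accaucgaccguuAaAuguacc
The copy on chrUn_Sex had 8791 reads, or 67.5% of the 13019 3p reads of miR-181a (66.7 to 68.3). Its hairpin lies on the plus strand from 6760148 to 6760218. The copy on chrUn_5, minus strand, from 15431407 to 15431515, had 2044 reads or 15.7% (15.1 to 16.3), 1017 and 1027 of them in sequences that differ by the last base. The copy on chrUn, plus strand, from 593150098 to 593150180, had 1605 reads or 12.3% (11.8 to 12.9). The copy on chrUn_11, plus strand, from 25858998 to 25859059, had 512 reads or 3.93% (3.61 to 4.28). The 4 intervals did not overlap, and the copy with most reads had 17.2 times those of the copy with fewest. The chrUn_5 copy stands above the chrUn copy only with its 2 sequences added, as each alone had fewer reads than 1605. The remaining 67 reads, of omy-mir-181a-2-3p, have no genome position. The 21045 reads of omy-miR-181a-5p are listed at the chrUn_Sex hairpin alone. The table gives each sequence 1 position, and whether other copies of miR-181a carry the same 5p or 3p sequence was not tested. The reads given for a copy are those of the sequences listed at its position. Further below, sequences listed at the same place differ in bases. A listed position therefore does not mean that every base matches the genome. The sources used here do not name the build of the trout genome behind these positions, and the genes around them were not analysed here.

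**Figure D3:**
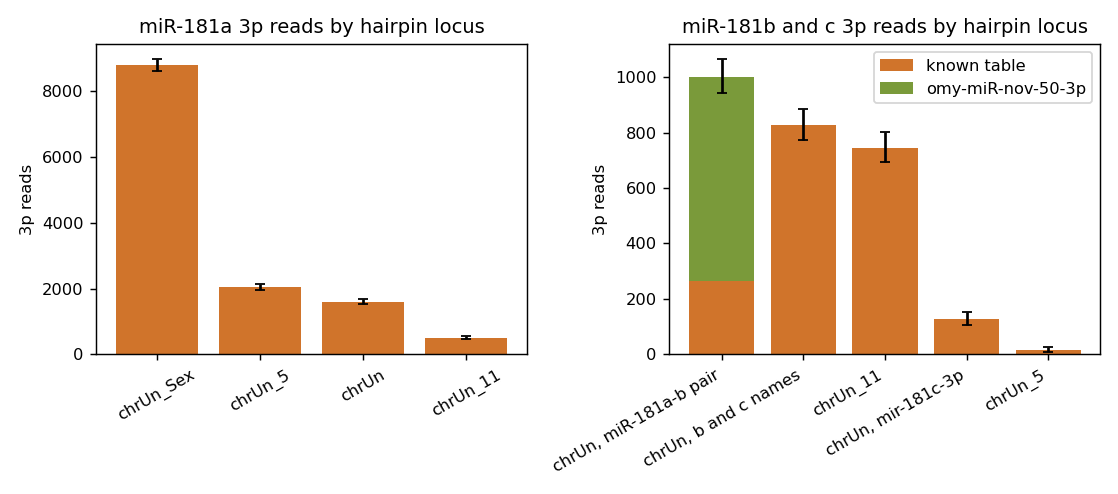
Reads from the 3p arm by hairpin locus, for miR-181a (left) and for miR-181b and miR-181c (right), with 95% Poisson intervals as error bars. On the left the chrUn_Sex copy stands at 8791 reads above 2044, 1605 and 512. On the right the green part is omy-miR-nov-50-3p of the predicted table, 738 of the 1002 reads of its hairpin.

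The sequences of miR-181b differed from miR-181a in the 5p arm by 3 bases outside the seed. With positions from 1 at its first base, the changes from omy-miR-181b-5p to omy-miR-181a-5p are U9A, U10C and G21A. omy-miR-181b-5p was listed as 6 sequences, and the main sequence held 26853 reads or 91.2%. This main sequence is listed on chrUn_11 alone, at the hairpin from 25859189 to 25859268. The whole of it is contained in sequences listed on chrUn, in the hairpins from 593150662 to 593150748 and from 1094915992 to 1094916051. Its reads therefore cannot be assigned to one of these places by sequence. Next by reads was a sequence of the same length with G18C, with 2430 reads or 8.25% (7.94 to 8.57). It has a hairpin of its own on chrUn, plus strand, from 528642361 to 528642421, where no 3p sequence was listed. The other 4 had 30 to 62 reads each. All sequences of omy-miR-181b-5p and omy-miR-181c-5p other than the main and the shifted one are shown with capitals at the bases that differ from the main sequence of omy-miR-181b-5p, because they show how close the entries named miR-181c are to miR-181b.
omy-miR-181b-5p, 2430 reads: aacauucauugcugucgCugggu
omy-miR-181b-5p, 62 reads: aacauucauugcugucgguggguUAUU
omy-miR-181b-5p, 30 reads: aacauucauugcugucgguggguUUA
omy-miR-181b-5p, 30 reads: aacauucauugcugucgguggguAAU
omy-miR-181c-5p, 194 reads: CacauucauCgcugucgguggg
omy-miR-181c-5p, 107 reads: aacauucauugcugucgguggguUUUUU
omy-miR-181c-5p, 20 reads: Cacauucauugcugucggugggu
omy-miR-181c-5p, 14 reads: aacauucauugcugucgguggguUUG
Of the 335 reads of omy-miR-181c-5p, 121 or 36.1% were in 2 sequences that begin with the whole main sequence of omy-miR-181b-5p and continue with 3 or 5 more bases. The other 2 sequences differ from it by A1C alone, with 20 reads, or by A1C, U10C and the lack of the last base, with 194 reads and no genome position. In all, 5 sequences extend the main miR-181b sequence at its 3′ end, with 243 reads or 0.478% of the 5p reads, and 3 of the 5 have a genome position. The 14-read and 107-read sequences are listed at the same hairpin but differ within their first 3 added bases. They cannot both match it in full, so a listed position does not mean that every base matches the genome. Which of the added bases are in the genome was not tested.

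**Figure D4:**
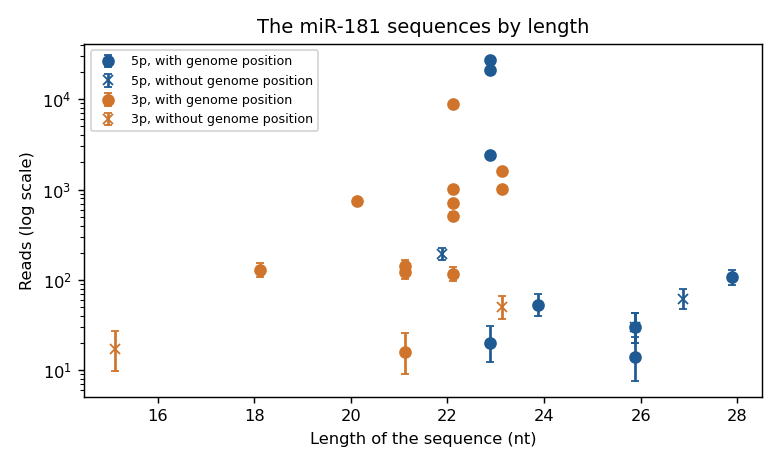
Reads of the 25 miR-181 sequences on a log axis by length in nt, by arm and by whether the table gives a genome position, with 95% Poisson intervals as error bars. The sequences over 1000 reads are 22 or 23 nt long, while the sequences of 26 to 28 nt, all from the 5p arm, lie between 14 and 107 reads.

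The hairpins of the family fell into 10 places, counting hairpins that overlap on the same strand as 1 place, from 20 sequences with a position. In 3 cases a miR-181a hairpin lay upstream of a hairpin with miR-181b names on the same strand. On chrUn_11 the miR-181b hairpin, from 25859189 to 25859268, begins after 129 bases. On chrUn it begins after 481 bases and extends from 593150662 to 593150748. On chrUn_5 the hairpin places are 2188 bases apart. The miR-181a place there joins 2 overlapping hairpins, and the distance is counted from the one nearer to miR-181b. The miR-181b hairpin extends from 15429134 to 15429218 on the minus strand. The chrUn_Sex hairpin with 8791 3p reads had no other miR-181 hairpin within 10 kb, nor had 3 hairpin places on chrUn.

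**Figure D5:**
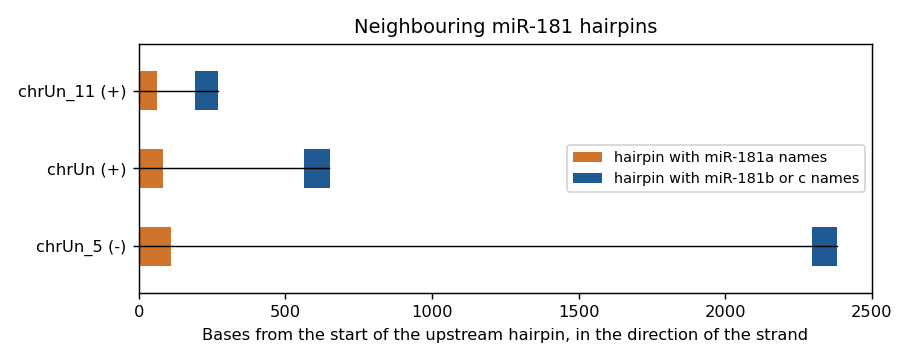
The 3 pairs of miR-181 hairpins on the same strand, drawn to scale in bases from the start of the upstream hairpin, with boxes for the hairpin places. The miR-181a hairpin is upstream in each pair, and 129, 481 and 2188 bases lie between the boxes.

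The 3p entries of miR-181b were listed at several hairpin places. omy-miR-181b-3p, with 745 reads, is listed at the chrUn_11 pair. omy-mir-181b-3p is the same sequence with 2 more bases at the 3′ end and is listed at another place, on chrUn from 1094915975 to 1094916064, with 711 reads. The whole of omy-miR-181b-3p is contained in it, so its 745 reads cannot be assigned to one of these places by sequence. omy-miR-181c-3p, with 117 reads, and the extended sequences of omy-miR-181c-5p, with 121, are listed inside that same place, from 1094915992 to 1094916051. With positions from 1 at the first base of omy-mir-181b-3p, omy-miR-181c-3p differs from it by C19A and G21C. The names miR-181b and miR-181c were thus both given to sequences of this hairpin place. Both names were also given at the place on chrUn from 593150662 to 593150748.
omy-mir-181b-2-3p differs from omy-miR-181b-3p by A4G and U9A, with positions from 1 at the first base of omy-miR-181b-3p, the first of these within the seed. Its 3 sequences had 141, 123 and 16 reads. The first 2 lie at the chrUn pair and the third at the chrUn_5 pair. The last 2 differ from the first by A20U, with positions from 1 at the first base of the first sequence, and the third also begins 1 base earlier and ends 1 base earlier. The last 2 are shown with the seed in capitals, because the earlier start gives the 16-read sequence a seed that no other miR-181 name had.
omy-mir-181b-2-3p, 123 reads: cUCGCUGAacaaugaaugcua
omy-mir-181b-2-3p, 16 reads: gCUCGCUGaacaaugaaugcu
The predicted table holds a further sequence at the chrUn pair. omy-miR-nov-50-3p, with 738 reads (686 to 793), is listed in the hairpin from 593150662 to 593150746, which also holds omy-mir-181b-2-3p and 1 sequence of omy-miR-181c-5p. It has 1 more base at the 5′ end than the first sequence of omy-mir-181b-2-3p, lacks its last base, and matches it at all 20 bases between, so its seed is that of the 16-read sequence. Capitals mark the added base.
omy-miR-nov-50-3p: Acucgcugaacaaugaaugca
omy-mir-181b-2-3p, first sequence: cucgcugaacaaugaaugcaa
The predicted name had 2.64 times the 280 reads of omy-mir-181b-2-3p, of which 264 are listed at this hairpin. With it, the 3p reads of miR-181b were 2474 in place of 1736, and the 5p share of miR-181b was 92.3% (92.0 to 92.5), still above the interval of miR-181a.

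The entries written mir, which are listed apart from those written miR, held 1187 reads or 1.80% of the family in 4 names. The name did not always mark the copy. omy-mir-181a-2-3p, despite its name, was closest to the chrUn_5 copy and not to omy-miR-181a-2-3p. Its 50-read sequence differs from omy-miR-181a-4-3p by U19G and 1 added 3′ base, and carries the C16G of the chrUn_5 copy. Its 17-read sequence of 15 nt shares 12 bases in a row with omy-miR-181a-4-3p. Both are shown with the seed in capitals, that of the shorter one found in no other family sequence.
omy-mir-181a-2-3p, 50 reads: aCCAUCGAccguugaguggaccu
omy-mir-181a-2-3p, 17 reads: uGUUGAGUguacccc
omy-mir-181c-3p stood apart from the family by sequence. It shares no more than 5 bases in a row with any other miR-181 sequence, and its hairpin on chrUn, plus strand, from 973909382 to 973909459, holds no other entry of the family. It is shown with its seed, which no other family sequence has, in capitals.
omy-mir-181c-3p: cUGAUUCAcauacauugu
Folded against the main sequence of omy-miR-181b-5p, it formed 9 base pairs at a predicted energy of -6.80 kcal/mol, and against omy-miR-181a-5p 12 base pairs at -9.00. omy-mir-181c-3p was not folded against omy-miR-181c-5p, and no 5p sequence is listed in its own hairpin. The other 3p names tried formed 16 to 18 base pairs with the 5p arm of their letter, or with omy-miR-181b-5p for omy-miR-181c-3p, at -17.0 to -23.4 kcal/mol, and omy-miR-nov-50-3p formed 18 base pairs with omy-miR-181b-5p at -21.8. For 148 hairpins of other known families with both arms listed, the median was 16 base pairs and -20.6 kcal/mol, with a range of 3 to 20 base pairs and of -30.6 to -2.90 kcal/mol. Of these hairpins 10 formed at most 9 base pairs and 15 at most 12. With 129 reads, omy-mir-181c-3p held 52.4% of the 3p reads named miR-181c.

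Beside the family, miRNA lists of blood cells, the gonad and the early embryo were summed. The white blood cell list (miR-142, miR-150, miR-155 and miR-223) had 10048 reads in 8 names, 0.131% of known reads, and the miR-181 family had 6.55 times as many. The red blood cell list (miR-451 and miR-144, of which only miR-451 was found) had 170393 reads, the gonad miRNA miR-202 had 309370 and the early embryo family miR-430 had 28423. Against these the miR-181 family had 0.386, 0.213 and 2.32 times as many reads, in that order. The part of these cells and tissues in the miR-181 reads was not tested.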

How the data were processed

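RNA from the eggs of different females was pooled by age and sequenced by the authors on an Illumina GAIIx. With ACGT101-miR the authors removed low-quality, low-copy, adapter and simple sequences and matches to mRNA, Rfam and Repbase, found known miRNAs by BLAST against miRBase, and predicted others from hairpins in the trout genome. The deposited values are counts of reads per unique sequence in 1 column of whole numbers with no library named, so the depth of single libraries was not analysed here. The tables hold 7684127 known and 333447 predicted reads. The low-copy filter of the authors removed sequences with fewer than 10 copies. The lowest counts listed were 10 for known and 20 for predicted sequences, so a sequence not listed may have had few reads.

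Reads were summed by name, letter, arm, seed and hairpin position. Poisson and Clopper-Pearson intervals were exact, at 95%. Sequences were compared without gaps. Arms were folded with RNAduplex of ViennaRNA 2.7.2. Scripts ran in Python 3.11.15 with SciPy 1.17.1, pandas 2.3.3, matplotlib 3.10.9 and numpy 2.4.6, and their intervals and sequence comparisons were first tested on simulated data. All 13 names are reported, with each name's main sequence, those of omy-miR-181b-5p and omy-miR-181c-5p, each sequence whose seed differs from the common one of its arm, and entries within 10 kb of a hairpin. The members, lists and comparison families were chosen with earlier results of these data known. The position given to a sequence is the single one in the table. Values of single ages were planned, but the table holds none.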

Additional observations from a re-analysis of the deposited data

Results flagged for a closer look

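omy-miR-nov-50-3p is listed in the predicted table, which the sums over the miR-181 names do not use, and had 738 reads (95% Poisson interval 686 to 793). It was singled out because its hairpin also holds omy-mir-181b-2-3p, which had 264 of its 280 reads there. It was the only entry of another name within 10 kb of a miR-181 hairpin, and it made up 29.8% of the 3p reads of miR-181b when added to them. The way the authors' matching placed it among predicted miRNAs was not tested.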

How the results depend on the processing

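Of 41 alternatives, 24 stayed within the counting interval of the value or within 1.5 times of a count. With a genome position, 20 to 24 nt or at least 50 reads required, the family reads, the 5p share, the miR-181b share and the seed share all stayed within their intervals. These filters kept 65486, 65450 and 65712 of the 65839 family reads, in that order, so only small changes were possible. With the main sequence of each name only, the family had 61920 reads, a 5p share of 77.7%, a miR-181b share of 5p reads of 55.8% and the common seed in 100% of 5p reads, by fewer sequences. Without names written mir there were 64652 reads and a 5p share of 78.6%. Over known and predicted reads the family held 0.821%, and by its most abundant name it ranked 42nd. With omy-miR-nov-50-3p, an alternative chosen after seeing the data, there were 66577 reads and a 5p share of 76.4%. Without omy-mir-181c-3p, also chosen after seeing the data, the 5p share of miR-181c was 74.1% in place of 57.7%, and that of the family stayed within its interval. Summing miR and mir entries gave 1456 reads for the miR-181b 3p name, 246 for that of miR-181c and 8858 for that of miR-181a-2. The count of hairpin places was 7 to 10. The 5p share by study number was not run, since a number holds 1 arm. A single number of reads per sequence limits every value to a description of the table. No paired analysis was possible, since RNA was pooled over females and no value belongs to a single age. No library of any age was repeated.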

Other observations

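The miR-181 family held 2 of the 13 known sequences longer than 26 nt, the limit given in the methods, with 169 of their 3068 reads. They are the 27-nt sequence of omy-miR-181b-5p with 62 reads and the 28-nt sequence of omy-miR-181c-5p with 107, both the main miR-181b sequence with more bases at the 3′ end. The let-7, miR-26 and miR-30 families held none.

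The hairpins listed on chrUn_5 for omy-miR-181a-4-3p, from 15431452 to 15431515, and for the second sequence of omy-miR-181a-3p, from 15431407 to 15431473, overlap by 22 bases, the length of the sequence they share. On the minus strand this overlap is the 3′ end of the omy-miR-181a-4-3p hairpin and the 5′ end of the other hairpin. Where each sequence lies within its hairpin was not tested. The second sequence of omy-miR-181a-3p has 1 more base than omy-miR-181a-4-3p, and the reads were 1027 and 1017.

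Of the 25 miR-181 sequences, 5 had no genome position, with 353 reads or 0.536% of the family. Over all known sequences it was 230 of 1059, with 2.12% of the reads.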
